A study of Zea mays with 20 samples.

Results

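Young maize leaves carry a set of genes whose RNA is scarce in the meristem-bearing tissues of the same inbred, and this account follows 200 of them through 2 kinds of kn1 mutant. Levels are given as CPM, a gene's count scaled to a common library total. A gene's score was its mean CPM in wild-type leaf plus 0.5, divided by the highest of its means in sibling SAM, tassel and ear plus 0.5. Of 39656 genes, 16651 had a wild-type leaf mean of at least 5 CPM, and the 200 highest scores among them are the members. They were thus chosen by their measured levels in the wild-type leaf libraries and all sibling libraries. Levels in those libraries are description, and every difference measured against them shares libraries with the choice.

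RNA-seq counts were deposited for 20 maize libraries of the B73 inbred. Young leaf was taken from Kn1-N/Kn1-N homozygotes, Kn1-N/+ heterozygotes and +/+ siblings, 2 libraries each. Leaf tissue was a cylinder cut from greenhouse seedlings at 10 days, starting 2 to 3 mm above the SAM, with a length of 7 to 8 mm and a width of 1 to 2 mm. Tassel primordia came from kn1-e1/kn1-e1 plants, at 2 to 3 mm, and from siblings, at 4 to 5.5 mm, in field pools of 10 with 3 libraries each. Ear primordia came from kn1-e1/kn1-e1 plants, at 4 to 5 mm, and from siblings, at 7 to 8 mm, in field pools of 6 to 8 with 2 libraries each. SAM samples came from kn1-e1/kn1-e1 plants and siblings at 19 days in the greenhouse, in pools of 15 with 2 libraries each, and were cut at the base of the fourth youngest leaf primordium, so they hold young primordia as well as the meristem. The tassel, ear and SAM siblings are titled wild type, carry the genotype label kn1-e1/+, and are called heterozygote or wild type in the design. Kn1-N is carried by both mutant leaf groups, and kn1-e1 by the mutant tassels, ears and SAMs and, per their genotype label, by their siblings too. In tassel and ear the genotypes also differed in the size of the organ, and size and genotype cannot be told apart. Leaf differed from the other tissues in age and, for tassel and ear, in growth place. The design calls the libraries of a group biological replicates. Whether they came from separate plantings was not given, so p-values measure the spread between these libraries.

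kn1 encodes KNOTTED1, the founding member of the KNOX homeobox proteins, which is made in shoot meristems and is switched off where a leaf starts to form. Kn1-N is a dominant allele with kn1 activity in the leaf, where it is known for displaced tissue identities along the blade and sheath, and kn1-e1 is a loss-of-function allele. A leaf at this stage is still growing at its base while the parts nearer the tip green, build photosystems and take up water into enlarging cells.

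The libraries held 16068246 to 20722952 counts. kn1 was at 9.79 and 10.8 CPM in homozygous, 5.02 and 6.10 in heterozygous and 0.0513 and 0 CPM in wild-type leaf (1 and 0 counts), and was lower in kn1-e1 tassel, ear and SAM than in the siblings of each. In kn1-e1 plants it was at 37.7 to 58.8 CPM in tassel, 34.3 to 34.7 in ear and 10.2 to 11.96 CPM in SAM. The siblings had 186 to 208, 126 to 135 and 33.6 to 37.2 CPM in the same order. kn1 was not a member. The KNOX list, 9 genes, summed to 76.7 to 78.0 CPM in homozygous, 70.5 to 72.3 in heterozygous and 56.2 to 61.2 CPM in wild-type leaf, against 211 to 1031 in the other tissues. Of the 17 genes listed for photosystems and light harvesting, the 8 that are not members summed to 371 to 481 CPM over the 6 leaf libraries and to 97.8 to 143 CPM over the other 14. By these 2 lists, leaf and meristem samples carried the markers their labels call for. The 22 genes listed for carbon fixation and C4 did not follow that order. They summed to 850 to 995 CPM in leaf, 1215 to 1302 in tassel, 1260 to 1339 in ear and 925 to 965 CPM in SAM. Other lists also differed in their sums between the leaf genotypes, not all of them without overlap. The 8 vascular genes summed to 544 to 554 CPM in homozygous, 500.0 to 513 in heterozygous and 472 to 492 CPM in wild-type leaf, and the 31 listed cytosolic ribosomal protein genes to 7722 to 7972, 6814 to 7312 and 6690 to 7031 CPM in the same order. The 33 cell cycle genes summed to 3560 to 3658 CPM in homozygous, 3463 to 3540 in heterozygous and 3329 to 3395 CPM in wild-type leaf. The 33 inflorescence identity genes ran the other way, at 358 to 366, 391 to 396 and 415 to 419 CPM in the same order. Of 13 heat shock genes tested, 7 were higher and 0 lower in homozygous than in heterozygous leaf, where 1.64% of all genes tested were higher and 3.12% lower. The 14 listed summed to 3785 to 3810.2 CPM in homozygous, 3444 to 3835 in heterozygous and 3462 to 3585 CPM in wild-type leaf. The heterozygous sums thus overlapped those of both other genotypes. None of the 8 vascular genes was at 0 in leaf. Their part in the results was not tested. In bulk tissue, fewer cells of a type and less RNA per cell cannot be told apart.

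The members were abundant in leaf and close to the counting floor elsewhere, as the rule required. Their wild-type leaf means ran over 11.6 to 1658 CPM, with a median of 40.1 and quartiles of 25.2 and 80.0. The highest of their 3 sibling means had a median of 0.279 CPM, and 158 of 200 stayed below 1 CPM in every sibling tissue. There were 13 members with no count in any of the 7 sibling libraries. Scores ran from 23.6 up to 651, with a median of 43.4. At the edge, GRMZM2G170766, GRMZM2G154549 and GRMZM2G181258 had the last 3 scores inside, at 23.8, 23.6 and 23.6. GRMZM2G038003, GRMZM2G104616 and GRMZM2G039187 came next outside, at 23.6, 23.5 and 23.5, so the boundary marks no break.

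**Figure D1:**
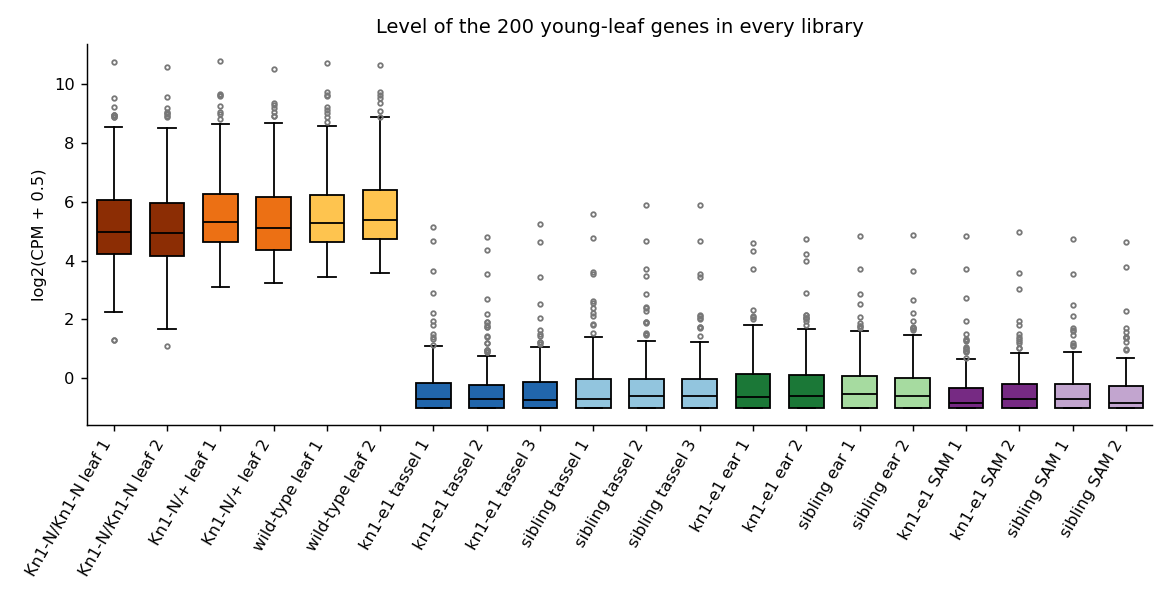
Boxes show the 200 members' log2(CPM + 0.5) in each of the 20 libraries (line: median, box: quartiles, points: values beyond 1.5 box lengths). All 6 leaf boxes lie above all 14 tassel, ear and SAM boxes, and the homozygous leaf medians, 30.8 and 30.3 CPM, lie below the heterozygous ones at 39.7 and 33.9 and the wild-type ones at 38.8 and 41.1 CPM.

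Of the 200 members, 164 matched an entry of the RefSeq gene table and 38 had a descriptive symbol, and no role is given to the others. Among the named, 17 belong to photosynthesis. They include psaH and psaN, subunits of photosystem I, PSA3, a factor for its assembly, and psbs1, the photosystem II protein of energy dissipation. They also include the light-harvesting chlorophyll proteins lhcb3, lhcb4, lhcb6, lhcb7 and cab-m1, the ferredoxins FDX1 and fdx5, and the m-type thioredoxin trm1. rbcs1 and rbcS encode the Rubisco small subunit, gpa1 and gpb1 the chloroplast glyceraldehyde-phosphate dehydrogenase, and pcr1 a protochlorophyllide reductase, which makes chlorophyllide in light. A smaller group is of water channels, wall and cytoskeleton. PIP2-4 and pip2c are plasma membrane aquaporins, expB4 is a beta-expansin that loosens walls and tub4 is a beta-tubulin. prcw1 was placed here by its symbol, though the gene lists used below hold it under defence and proteinase inhibitors. The light-harvesting genes and the pair of Rubisco small subunit genes have close copies, so how reads were split between copies is uncertain for them.

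The most abundant member in leaf was glu1, a beta-glucosidase that frees benzoxazinoids from their glucosides. It stood at 1730.47 and 1544 CPM in homozygous, 1767 and 1485 in heterozygous and 1694 and 1623 CPM in wild-type leaf. The genotypes overlapped, and glu1 alone held 8.57 to 11.3% of the members' counts in leaf. The named member with the highest score was thi1, which makes the thiazole part of thiamine and ranked 4 of 200. It had 494 and 516 CPM in homozygous, 609 and 488 in heterozygous and 604 and 653 CPM in wild-type leaf.

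The question the homozygous and heterozygous leaves pose for these genes is whether leaf RNAs that are low in meristem tissues change with the dose of the Kn1-N allele. Neither group was used to choose the members. All 200 members passed the filter on low counts in leaf. Relative to heterozygous leaf, 67 members were lower and 6 higher in homozygous leaf (edgeR quasi-likelihood test, Benjamini-Hochberg adjusted p under 0.05 over 22071 genes). Of all genes tested 3.12% were lower and 1.64% higher, and of the 16651 genes past the leaf floor 3.52% and 1.77%. The members' median log2 fold change was -0.15, against 0.003 over all genes tested, and 15 of the 67 fell at least 2-fold. The count rests on both homozygous libraries: without homozygous library 1 there were 38 calls, and without homozygous library 2 there were 23, where 1 library stands for its genotype and is assumed to vary like the others. Every homozygous library lay below every heterozygous library in 104 members (52%), against 31.9% of the 16451 other genes past the leaf floor.

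None of the 67 lower calls was a photosynthesis-named member. Of those 17, 0 were called lower and 2 higher in homozygous than in heterozygous leaf by edgeR, with a median log2 fold change of 0.09. At an unadjusted p under 0.05, 1 was lower and 3 were higher, where 21.1% of all genes tested had such a p in either direction. DESeq2 called 0 lower and 1 higher. Of the other 183 members, 67 were called lower and 4 higher, with a median of -0.19. All 5 of the water channel, wall and cytoskeleton group were lower, with a median of -0.95. These role groups were drawn up with the members' values known, so the contrast between them is a description of these libraries. The difference between the groups was not tested.

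**Figure D2:**
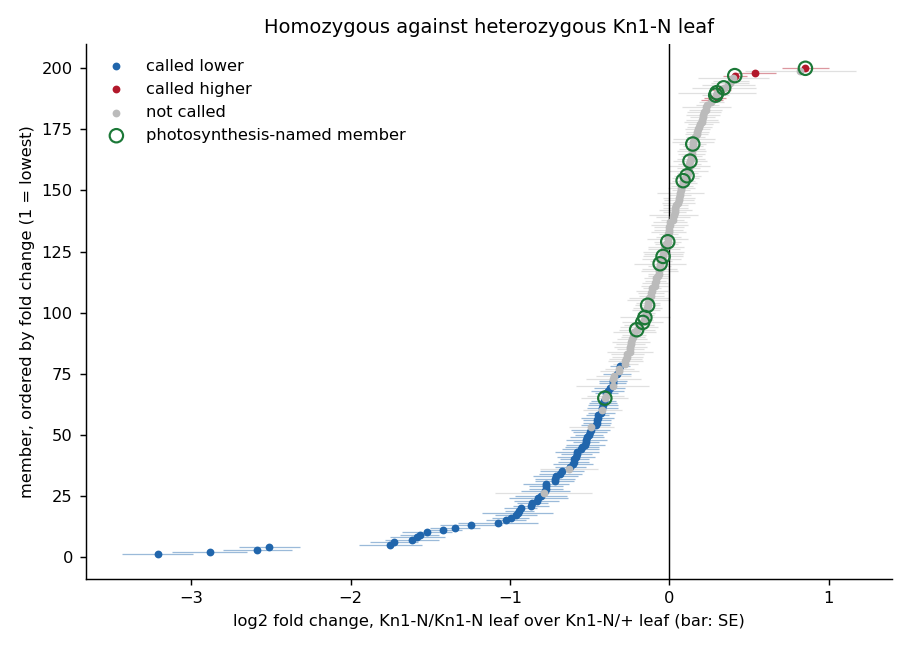
Each point is 1 of the 200 members, placed by its log2 fold change of Kn1-N/Kn1-N over Kn1-N/+ leaf (bar: SE) and ordered from the lowest; colour marks the call and open green circles the 17 photosynthesis-named members. The 67 lower calls reach down to -3.21, while the named photosynthesis genes lie between -0.41 and 0.85.

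Both aquaporins fell steeply. PIP2-4 was at 8.10 and 8.40 CPM in homozygous, 28.9 and 19.5 in heterozygous and 33.1 and 34.9 CPM in wild-type leaf, and the 3 genotypes did not overlap. Its log2 fold change of homozygous over heterozygous leaf was -1.52 ± 0.16 (SE; edgeR adjusted p = 0.00021). For pip2c the levels were 6.59 and 5.97 CPM in homozygous, 24.6 and 17.7 in heterozygous and 26.2 and 26.4 CPM in wild-type leaf, again with no overlap, and the change of homozygous over heterozygous leaf was -1.73 ± 0.15 (edgeR adjusted p = 5.5e-05). Both calls held in every alternative run, including those that left out a library.

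The wall and cytoskeleton members moved less or less evenly. expB4 was at 14.3 and 12.6 CPM in homozygous, 35.1 and 17.7 in heterozygous and 32.7 and 30.9 CPM in wild-type leaf. The 2 heterozygous libraries lay far apart around the wild-type values, and the log2 fold change of homozygous over heterozygous leaf was -0.95 ± 0.22 (edgeR adjusted p = 0.027). Without heterozygous library 1 it was -0.38, and the call was lost without any 1 of the leaf libraries except heterozygous library 2, and by DESeq2. prcw1, the most abundant of the group, was at 475 and 491 CPM in homozygous, 811 and 582 in heterozygous and 804 and 738 CPM in wild-type leaf. Every homozygous library lay below the rest, with a change of -0.50 ± 0.11 against heterozygous leaf (edgeR adjusted p = 0.018), a call lost without homozygous library 1 or 2 or by DESeq2. tub4 was at 89.3 and 80.2 CPM in homozygous, 131 and 106 in heterozygous and 141 and 135 CPM in wild-type leaf. Its genotypes were ordered without overlap, and its change was -0.46 ± 0.09 against heterozygous leaf (edgeR adjusted p = 0.0098), a call lost without homozygous library 2.

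Lists of all genes with such symbols, members or not, give the surroundings, to be read against the 3.12% of all genes tested that were lower and the 1.64% that were higher. Of 29 cell wall genes tested, 13 were lower and 0 higher in homozygous than in heterozygous leaf, with 1 member among the 13. Of 21 transporter and channel genes tested, 7 were lower and 0 higher, with both aquaporin members among the 7. Of 14 photosystem and light-harvesting genes tested, 9 of them members, 0 were lower and 1 was higher, the member psaN. Of 10 benzoxazinoid genes tested, 4 were higher and 0 lower, while the one member among them, BX14, a late methylation enzyme of that pathway, was not called. BX14 was at 43.1 and 22.7 CPM in homozygous, 23.9 and 26.2 in heterozygous and 20.7 and 31.3 CPM in wild-type leaf, and the genotypes overlapped.

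Regulators among the members were few, and 3 of 5 were lower in homozygous than in heterozygous leaf. MYB61, named for the MYB family of DNA-binding proteins, was at 4.47 and 3.93 CPM in homozygous, 15.0 and 10.5 in heterozygous and 14.4 and 15.3 CPM in wild-type leaf. Homozygous libraries lay well below the rest, with a log2 fold change of -1.58 ± 0.17 against heterozygous leaf (edgeR adjusted p = 0.00029). id1 encodes INDETERMINATE1, a zinc finger protein of immature leaves that promotes the floral transition. Its levels were 12.6 and 14.0 CPM in homozygous, 21.6 and 16.8 in heterozygous and 23.9 and 26.2 CPM in wild-type leaf, ordered without overlap. The change against heterozygous leaf was -0.50 ± 0.12 (edgeR adjusted p = 0.035), and it was not called without any 1 of homozygous libraries 1 and 2, heterozygous library 1 or wild-type libraries 1 and 2, nor by DESeq2. bZIP89 changed by -0.33 ± 0.09 (edgeR adjusted p = 0.045), a call also lost without any 1 of those 5 libraries, by DESeq2 and with no filter on low counts. NAC95 and hsbp1, a heat shock factor binding protein, had log2 fold changes of -0.07 ± 0.12 and -0.63 ± 0.18 and were not called.

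Of the 3 beta-glucosidase and benzoxazinoid members, glu1, glu2 and BX14, only glu2 was called in homozygous against heterozygous leaf. glu2, the second beta-glucosidase, was at 26.2 and 28.4 CPM in homozygous, 58.8 and 48.5 in heterozygous and 71.9 and 67.3 CPM in wild-type leaf. The 3 genotypes were apart, and the change against heterozygous leaf was -0.94 ± 0.09 (edgeR adjusted p = 0.00013), where that of glu1 was 0.04 ± 0.08 and not called. Of the 3 lipid transfer and glutathione transferase members, 2 were lower. gst9, a glutathione transferase, was at 6.47 and 6.65 CPM in homozygous, 14.7 and 12.6 in heterozygous and 20.8 and 18.7 CPM in wild-type leaf. It too was ordered without overlap, and it changed by -1.02 ± 0.13 against heterozygous leaf (edgeR adjusted p = 0.00056). plt2, a phospholipid transfer protein, changed by -0.43 ± 0.08 (edgeR adjusted p = 0.011), a call lost without homozygous library 1 or 2, while GST26 changed by -0.04 ± 0.12 and was not called.

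The photosynthesis genes called higher were pcr1 and psaN. pcr1 was at 595 and 593 CPM in homozygous, 263 and 407 in heterozygous and 261 and 329.6 CPM in wild-type leaf. Both homozygous libraries lay above all 4 others, with a log2 fold change of 0.85 ± 0.15 against heterozygous leaf (edgeR adjusted p = 0.0061), a call lost without homozygous library 2 (adjusted p = 0.064) and by DESeq2 (adjusted p = 0.092). psaN, at 61.2 and 58.2 CPM in homozygous, 43.1 and 48.3 in heterozygous and 48.6 and 50.9 CPM in wild-type leaf, changed by 0.41 ± 0.07 (edgeR adjusted p = 0.0073), which did not pass without homozygous library 1 or 2. The other photosystem I gene with a high score, psaH, was at 81.6 and 84.3 CPM in homozygous, 82.5 and 77.0 in heterozygous and 77.7 and 89.4 CPM in wild-type leaf, and did not differ beyond its spread.

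In 2 light-harvesting genes the replicates of a genotype lay further apart than the genotype means. lhcb3 was at 128 and 121 CPM in homozygous, 69.3 and 137 in heterozygous and 81.1 and 138 CPM in wild-type leaf. lhcb7 was at 245 and 244 CPM in homozygous, 144 and 249.7 in heterozygous and 156 and 236 CPM in wild-type leaf. In both genes heterozygous library 1 and wild-type library 1 were low and the other 4 close together, and neither gene was called. Without heterozygous library 2 both were called higher in homozygous leaf and rbcs1, rbcS and fdx5 lower, so the heterozygous pair decides these 5.

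**Figure D3:**
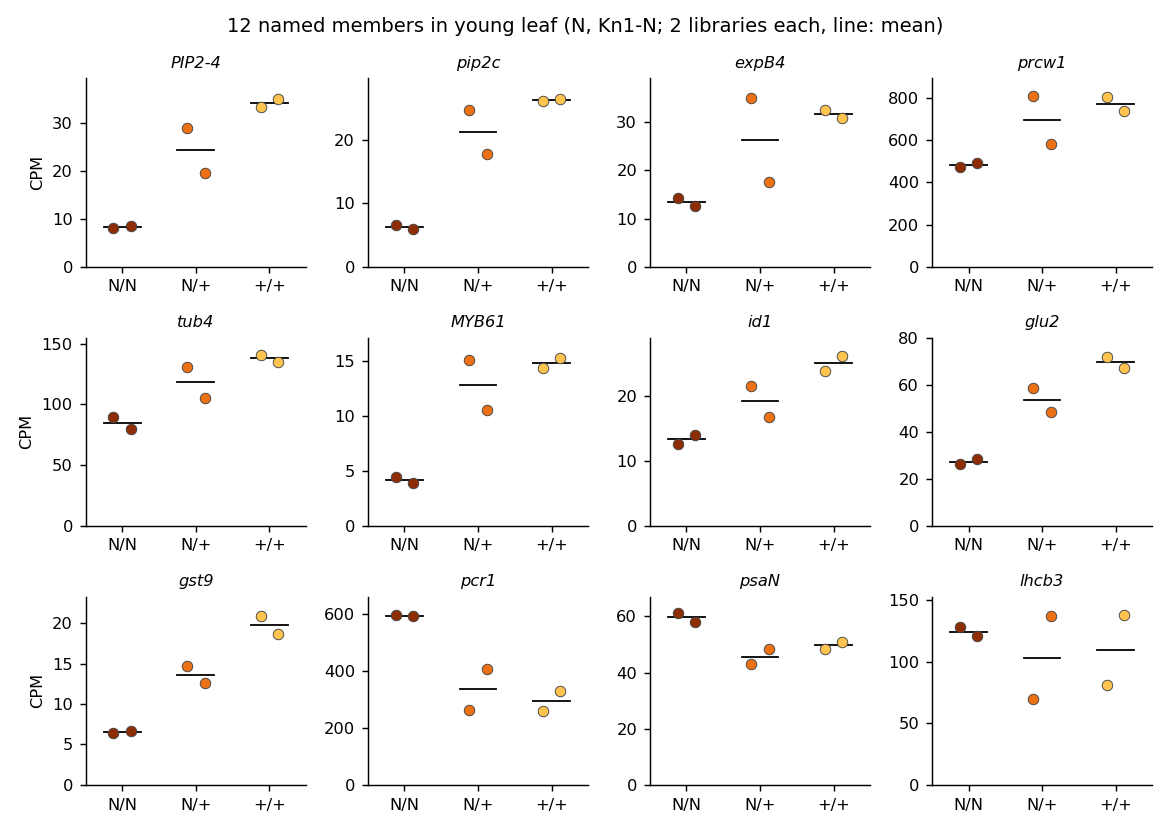
Panels give the CPM of 12 named members in the 6 young leaf libraries, Kn1-N/Kn1-N (N/N), Kn1-N/+ (N/+) and wild type (+/+), with a point per library and a line at the mean of 2; each axis starts at 0. PIP2-4, pip2c, tub4, id1, glu2 and gst9 are ordered without overlap, pcr1 and psaN are highest in N/N, and lhcb3 in N/+ has 1 library at 69.3 and 1 at 137 CPM.

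The heterozygous libraries differed from each other in many of these genes, and in others. Heterozygous library 1 was above library 2 in 164 of the 200 members (82%), against 51.8% of the other genes past the leaf floor, with a median log2 ratio of 0.21 over members and 0.007 over the others. It was at least 1.5 times library 2 in 14 members and in 114 of the 16451 others. The wild-type pair leaned the other way. Wild-type library 1 was above library 2 in 61 members (30.5%), against 53.6% of the others, with a median log2 ratio of -0.081 over members. It was above in 0 of the 17 photosynthesis-named members, with a median log2 ratio of -0.15. The members summed to 15319 and 15064 CPM in homozygous, 18200.2 and 15941 in heterozygous and 18254 and 18930.1 CPM in wild-type leaf. By this sum heterozygous library 1 stood near wild type and library 2 near homozygous leaf. The 17 photosynthesis-named members summed to 1718 and 1744 CPM in homozygous, 1295 and 1489 in heterozygous and 1248 and 1544 CPM in wild-type leaf, so that both homozygous libraries lay above the rest. Gene by gene, heterozygous library 1 was above library 2 in 11 of the 17, though the sum was lower in library 1, where lhcb3, lhcb7 and pcr1 were low. Within the sum of the 17, the 9 photosystem and light-harvesting members overlapped between genotypes. They summed to 690 and 692 CPM in homozygous, 530 and 697 in heterozygous and 553 and 725.5 CPM in wild-type leaf. The 5 for carbon fixation and chlorophyll summed to 829 and 849, 546 and 625, and 505 and 601 CPM in the same order. Of these 5, pcr1 held the larger part in homozygous leaf. Without pcr1, the genotypes overlapped in the sum of the 5 and in the sum of the 17. Wild-type library 2 was then the highest in the sum of the 17. In the homozygous pair library 1 was above library 2 in 95 members (47.5%), against 51.1% of the other genes past the leaf floor. The median log2 ratio over members was -0.01 there.

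Relative to wild-type leaf, whose libraries were part of the choice, 98 members were lower and 13 higher in homozygous leaf, where 9.59% of all genes tested were lower and 9.16% higher. Their median log2 fold change was -0.28, and 24 of the 98 fell at least 2-fold. All 67 members lower against heterozygous leaf were also lower against wild type, but both comparisons use the same homozygous libraries. When 200 genes were instead chosen with wild-type library 1 and set against wild-type library 2, 80 were lower and 3 higher. With the libraries swapped, 73 were lower and 14 higher. Of the 17 photosynthesis-named members 1 was lower, lhcb6, and 3 were higher, pcr1, gpa1 and psaN. The lhcb6 call was lost without any 1 of the homozygous and wild-type libraries, and those of gpa1 and psaN without homozygous library 1 or 2 or wild-type library 1.

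Mean CPM was lowest in homozygous, intermediate in heterozygous and highest in wild-type leaf in 129 members (64.5%), against 33.1% of the other genes past the leaf floor, and in the opposite order in 16 (8%), against 26.3%. Wild-type leaf helped choose the members, so these shares are description.

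The steepest falls were in genes with no name, which were picked out after their values were seen. GRMZM2G009465, with the highest score of all, was at 34.8 and 23.5 CPM in homozygous, 349 and 196 in heterozygous and 426 and 369 CPM in wild-type leaf. Its log2 fold change of homozygous over heterozygous leaf was -3.21 ± 0.22 (edgeR adjusted p = 3.1e-05), and it reached at most 0.121 CPM in any tassel, ear or SAM library. GRMZM2G089493 followed with 8.34 and 5.15 CPM in homozygous, 63.1 and 36.6 in heterozygous and 64.5 and 70.9 CPM in wild-type leaf. GRMZM2G384780, second in score, fell less, with 154 and 144 CPM in homozygous, 358 and 249 in heterozygous and 367 and 361 CPM in wild-type leaf and a change of -0.997 ± 0.12 against heterozygous leaf (edgeR adjusted p = 0.00036). In spite of such falls, 196 of 200 members kept a homozygous leaf mean of at least 5 CPM and all 200 kept one in heterozygous leaf.

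Few single members were called between heterozygous and wild-type leaf. Of 200 members 1 was called higher and 1 lower, where 0.127% of all genes tested were higher and 0.0181% lower, and 57 members had an unadjusted p under 0.05, where 7.07% of all genes tested had one. The median log2 fold change was -0.12, and 168 members had a negative one. Every heterozygous library lay below every wild-type library in 73 members (36.5%), against 17.4% of the other genes past the leaf floor. The members were chosen for high levels in these wild-type libraries, which favours lower values in heterozygous leaf, so the lean is description. GRMZM2G077015 was the lower one, at 11.8 and 8.90 CPM in heterozygous and 18.0 and 19.3 CPM in wild-type leaf, with a change of -0.84 ± 0.13 (edgeR adjusted p = 0.019). This count depends on heterozygous library 1: without it 60 members were called, 58 of them lower, and without heterozygous library 2, or without wild-type library 1, none was.

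The higher one, GRMZM2G140996, also without a name and chosen for its calls, was called in 5 of the 6 genotype comparisons. It was at 260.1 and 242 CPM in homozygous, 200.5 and 207 in heterozygous and 160.1 and 164 CPM in wild-type leaf, ordered without overlap. The change of homozygous over heterozygous leaf was 0.33 ± 0.06 (edgeR adjusted p = 0.0071), and that of heterozygous over wild-type leaf 0.34 ± 0.06 (edgeR adjusted p = 0.044). The first call was lost without homozygous library 1 or 2, and the second without any 1 of the leaf libraries except heterozygous library 1. In tassel it was at 0.679, 0.511 and 0.665 CPM in kn1-e1, against 3.02, 3.22 and 2.79 CPM in siblings, with a log2 fold change of -2.28 ± 0.22 (edgeR adjusted p = 6.4e-05). In ear it was at 0.290 and 0.154 CPM in kn1-e1, against 0.543 and 0.875 CPM in siblings (-1.71 ± 0.55, edgeR adjusted p = 0.045), a call lost when any 1 of the 4 ear libraries was left out, by DESeq2 and with library totals as scaling. In SAM, kn1-e1 lay above siblings, at 1.47 and 1.78 CPM against 0.687 and 0.560 CPM, with a change of 1.39 ± 0.37 that was not called.

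The members did not reach leaf level in any kn1-e1 tissue. Set against each other as groups that the choice did not use, Kn1-N leaf, both genotypes together, was higher than kn1-e1 tassel, ear and SAM in all 200 members, where 38.9%, 37.7% and 38.2% of all genes tested were higher in leaf. Every Kn1-N leaf library lay above every kn1-e1 library in all 200. With members at 0 set to a floor of 3 counts over the group, the median log2 ratio of leaf over kn1-e1 tissue was 8.08 in tassel, 7.72 in ear and 7.91 in SAM. There were 40, 34 and 60 members with no count in kn1-e1 tassel, ear and SAM, and 14 had none in any of the 7 kn1-e1 libraries. The smallest ratio was 8.53-fold, for lhcb6 in ear. As the members were chosen for leaf over sibling meristem, the direction was set by the choice. The summed level in kn1-e1 tissue was 143, 132 and 134 CPM in tassel, 155 and 164 in ear and 98.7 and 107 CPM in SAM, against 191, 195 and 184 CPM in sibling tassel, 133 and 129 in sibling ear and 103 and 92.04 CPM in sibling SAM. The tassel sums were lower in kn1-e1 and the ear sums higher, each without overlap, and the SAM sums overlapped.

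Few members could be tested between kn1-e1 tissues and their siblings: 46 in tassel, 59 in ear and 33 in SAM passed the filter on low counts. A member near the floor passes more easily when one genotype is high, and the sibling libraries were used in the choice, so these counts are given as description. In tassel 9 were lower and 0 higher in kn1-e1, where 5.55% of all genes tested were lower and 2.35% higher. In ear 11 were higher and 5 lower, where 8.21% were higher and 10.4% lower. Without sibling ear library 1 or 2 the ear count was 8, and without kn1-e1 tassel library 2 the tassel count was 14. In SAM none was called by edgeR or by DESeq2, and 0.0434% and 0.12% of all genes tested were higher and lower. There 3 members had an unadjusted p under 0.05, where 4.73% of all genes tested had one. The SAM fit had the largest spread between replicates (biological coefficient of variation 0.0853). A change could thus go uncalled more easily in SAM than in tassel or ear.

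Of the 11 members higher in kn1-e1 ears, 6 were photosynthesis genes. Of the 17 photosynthesis-named members 8 passed the filter there, and edgeR called 6 of them higher and 0 lower, with a median log2 fold change of 1.38. Some passed through the kn1-e1 ears, such as lhcb3 and psaN, with TMM-scaled means of 0.228 and 0.232 CPM in sibling ears. The direction among the 8 is thus partly set by the filter and by the choice of members, and is description. All 8 were higher at an unadjusted p under 0.05, where 32.3% of all genes tested had such a p in either direction. DESeq2 called 3 higher and 0 lower. lhcb6 was at 2.99 and 2.67 CPM in kn1-e1 ears, against 0.482 and 0.617 CPM in sibling ears, a change of 2.29 ± 0.31 (edgeR adjusted p = 0.00028). lhcb3 was at 1.35 and 2.11 CPM in kn1-e1 ears, against 0.241 and 0.206 CPM in sibling ears (2.86 ± 0.46, edgeR adjusted p = 0.00087), and lhcb7 at 2.75 and 3.34 CPM, against 1.09 and 1.18 CPM (1.36 ± 0.27, edgeR adjusted p = 0.0035). The kn1-e1 and sibling ears did not overlap in any of the 3. PSA3, gpb1 and pcr1 rose by 1.23 ± 0.32, 1.43 ± 0.36 and 0.88 ± 0.22, and each was lost without sibling ear library 1 and by DESeq2. PSA3 and pcr1 were also lost without sibling ear library 2, and pcr1 without kn1-e1 ear library 2. These are small amounts: the 17 members summed to 18.0 and 22.98 CPM in kn1-e1 ears, against 8.32 and 7.87 CPM in sibling ears and 1248 to 1744 CPM in leaf. The 8 photosystem genes that are not members summed to 138 and 143 CPM in kn1-e1 ears, against 104 and 109.9 CPM in sibling ears.

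In kn1-e1 tassels, edgeR called 1 of 5 photosynthesis-named members tested lower and 0 higher. At an unadjusted p under 0.05, 3 were lower and 0 higher, where 21.7% of all genes tested had such a p in either direction. DESeq2 called 1 lower and 0 higher. That one, pcr1, was at 3.34, 3.24 and 2.61 CPM in kn1-e1 tassels, against 5.72, 6.70 and 3.63 CPM in siblings (-0.82 ± 0.21, edgeR adjusted p = 0.034), a call lost without kn1-e1 library 1 or 3 or sibling library 1 or 2. lhcb3 and lhcb7 had log2 fold changes of -1.21 ± 0.36 and -0.87 ± 0.26 and were not called, though lhcb3 was without kn1-e1 library 2 and lhcb7 without sibling library 3. glu1, the most abundant member in tassel too, was at 34.6, 27.8 and 37.4 CPM in kn1-e1 tassels, against 48.2, 58.4 and 59.5 CPM in siblings, with a change of -0.75 ± 0.10 (edgeR adjusted p = 0.00063). Every kn1-e1 library lay below every sibling library. In ear glu1 was at 1.54 and 2.47 CPM in kn1-e1, against 2.95 and 3.40 CPM in siblings, and was not called (-0.73 ± 0.26).

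**Figure D4:**
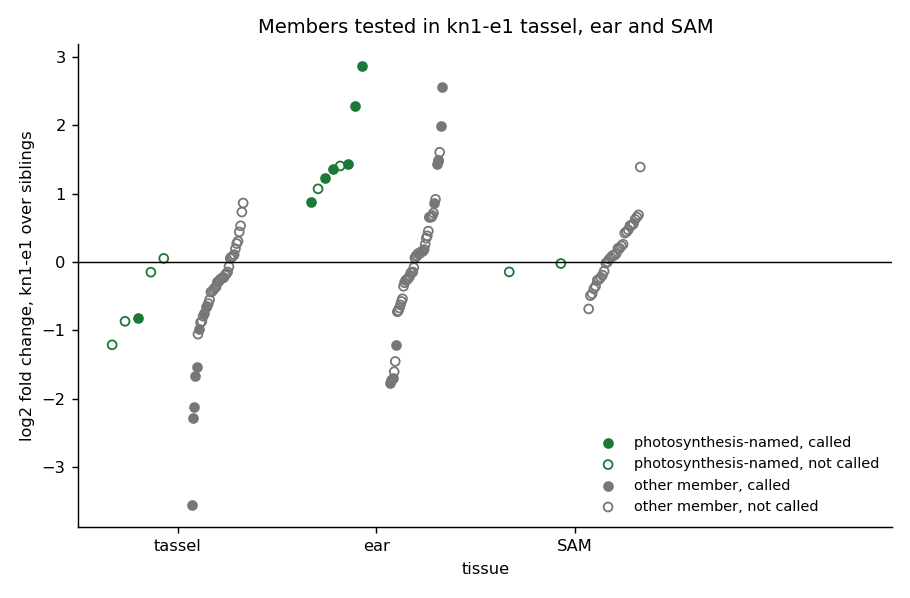
Log2 fold changes of kn1-e1 over siblings are shown for the members that passed the filter, 46 in tassel, 59 in ear and 33 in SAM, with photosynthesis-named members in green to the left and others in grey to the right in each tissue; filled points were called. The 8 green points of ear lie above 0, from 0.88 to 2.86, the 5 of tassel from -1.21 to 0.05, and the 2 of SAM just below 0.

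Among the other members in kn1-e1 ears, prcw1 was lower, at 2.70 and 2.98 CPM in kn1-e1, against 6.81 and 5.87 CPM in siblings (-1.21 ± 0.18, edgeR adjusted p = 0.00057). It thus fell in homozygous leaf and in kn1-e1 ear. An unnamed gene chosen for its calls, AC207722.2_FG009, was at 19.8 and 18.4 CPM in kn1-e1 ears, against 5.19 and 4.12 CPM in siblings (1.99 ± 0.13, edgeR adjusted p = 6.2e-07), and at 7.01, 6.02 and 5.27 CPM in kn1-e1 tassels, against 11.9, 12.6 and 11.1 CPM in siblings (-0.97 ± 0.12, edgeR adjusted p = 0.00027). Neither pair of groups overlapped. In leaf it was at 502 and 504 CPM in homozygous, 306 and 488 in heterozygous and 342 and 469.98 CPM in wild-type leaf, low in heterozygous and wild-type library 1 as lhcb3 and lhcb7 were. The most abundant member in ear and SAM, GRMZM2G158835, stayed between 20.0 and 30.7 CPM in all 14 tassel, ear and SAM libraries and was called in no genotype comparison.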

How the data were processed

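The authors deposited 1 table of raw read counts per gene, with 20 libraries and 39656 genes. CASAVA 1.8, TopHat 1.2.0, HTSeq and DESeq 1.4.1 are named in the submitters' processing notes, with no role or order; for the genome build and annotation, none is stated (not given in the sources used here). Libraries were TruSeq RNA, per the labels' protocols, taken here as keeping no strand, so overlapping antisense genes cannot be told apart.

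Gene names and neighbours came from RefSeq's gene table (assembly Zm-B73-REFERENCE-NAM-5.0). It held 18775 of the IDs, with several entries for 520. Sequences of the members are not shown.

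Counts were fitted with edgeR 4.0.16 in R 4.3.3 (quasi-likelihood test after TMM scaling; low counts removed by filterByExpr, minimum 10), in separate fits for leaf, tassel, ear and SAM and 1 fit of Kn1-N leaf with the kn1-e1 tissues. The biological coefficient of variation was 0.0485 to 0.0853, largest in the SAM fit. Residual degrees of freedom were 3, 4, 2, 2 and 6. p-values were adjusted by the Benjamini-Hochberg method over all genes tested and called under 0.05. Standard errors were derived from the F statistic and are approximate. CPM values use library totals and fold changes TMM factors. The fits were tested on simulated data. DESeq2 1.42.0 was an alternative. Replicate libraries differed by more than counting noise (chi-square per degree of freedom 1.83 to 12.3, highest in the sibling SAM pair), so none was treated as a duplicate.

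The members, gene lists and tests were chosen with earlier results of these data known. Named genes are, among members with a symbol, the 15 highest scores, up to 3 per gene list, the most significant 6 (homozygous against heterozygous leaf) or 3 (other genotype comparisons) in each direction, ranks 198 to 203, and kn1. The other symbols in the role groups, and the genes given by ID alone, were added after their values were seen. List symbols were matched by name only, so lists are incomplete.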

Additional observations from a re-analysis of the deposited data

Results flagged for a closer look

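In kn1-e1 tissues, 11 members had libraries of the 2 genotypes apart in opposite directions in 2 tissues. They are 25.6% of the 43 members tested in at least 2 of the tissues, against 17.6% of all 21077 genes so tested. Members near the floor pass the filter more easily when a genotype is high, and the sibling libraries were used in the choice. The share is thus description. The differences between tissues below were not tested. The log2 fold change in tassel minus that in ear was -4.07 for lhcb3, -2.23 for lhcb7, -1.70 for pcr1, -2.97 for AC207722.2_FG009 and -1.51 for GRMZM2G092311: each was below siblings in kn1-e1 tassels and above them in kn1-e1 ears. For GRMZM2G140996 the change in tassel minus that in SAM was -3.67 and the change in ear minus that in SAM -3.10. For prcw1 the change in ear minus that in SAM was -1.83. For GRMZM2G158835 the same differences were small, at -0.41 for tassel minus SAM and -0.48 for ear minus SAM. It was called in no tissue. Nor were lhcb3 and lhcb7 called in tassel, or GRMZM2G140996 and prcw1 (0.62 ± 0.36) in SAM. Sibling tassels and ears were larger organs than the kn1-e1 ones, and organ size and genotype cannot be told apart here.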

How the results depend on the processing

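Of 77 calls of named genes in the 6 genotype comparisons, 32 were lost under at least 1 alternative and 0 reversed, and 52 values not called gained a call under at least 1, 24 of them in heterozygous against wild-type leaf; over single settings, 93 losses came from leaving out a library and 17 from DESeq2. Leaving out 1 library gave 78 to 127 calls for homozygous against wild-type leaf, 23 to 101 for homozygous against heterozygous leaf, 0 to 60 for heterozygous against wild-type leaf, 6 to 14 in tassel, 8 to 17 in ear, 0 in SAM and 200 in each comparison of leaf with a kn1-e1 tissue. Taking 100 or 400 genes in place of 200 gave 63 and 204 calls for homozygous against wild-type leaf, 45 and 121 against heterozygous leaf, 5 and 23 in tassel, 7 and 39 in ear, and 100 and 400 in each comparison of leaf with kn1-e1 tissue; 100 genes gave 1 for heterozygous against wild-type leaf. This follows from the numbers taken. A score pseudocount of 2 gave 14 calls in tassel, 25 in ear and 1 in heterozygous leaf, and one of 0.1 gave 9 in ear. DESeq2 called 8 in ear. Members chosen on control number 1 and compared with the other controls gave 0 calls in heterozygous leaf and 8 in ear. Members chosen on the other numbers and compared with control 1 gave 1, 2, 7 and 1 in heterozygous leaf, tassel, ear and SAM. The cause was not tested. The median log2 fold change in ear, 0.13, turned to -0.046 with 400 genes and to -0.015 with a pseudocount of 2.

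Replicate numbers did not pair the libraries: deviations of same-numbered libraries correlated at -0.185 to 0.077. A replicate block gave 115, 80 and 4 calls in the leaf comparisons (homozygous against wild type, homozygous against heterozygous, heterozygous against wild type), 11 in tassel, 23 in ear and 0 in SAM. Crossing the SAM numbers, chosen after seeing the data, also gave 0. Most members lie near the counting floor outside leaf, so changes there were mostly not detectable at this depth.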

Other observations

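Members lay on every chromosome, from 10 on chromosome 9 to 28 on chromosome 1. Of 164 placed in the RefSeq gene order, 17.1% lie on chromosome 1, which carries kn1, against 16.1% of placed genes past the leaf floor. There were 6 pairs of neighbouring members within 5 reference genes of each other, a number not set against that of other genes. FDX1 and fdx5 lie 2 genes apart on chromosome 6, and trm1 and psaN lie 5 apart on chromosome 3. The member nearest to kn1 is GRMZM2G396114, 34 reference genes away and the only one within 100. It was at 45.2 and 44.2 CPM in homozygous, 47.3 and 47.1 in heterozygous and 50.4 and 54.4 CPM in wild-type leaf and was not called in leaf. In ear it was at 0.241 and 0.308 CPM in kn1-e1, against 1.03 and 0.720 CPM in siblings (-1.69 ± 0.49, edgeR adjusted p = 0.028), a call lost without kn1-e1 library 1 or sibling library 1 or 2, and by DESeq2.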
